A study of Bos indicus with 8 samples.

Results

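Transcripts of 9 genes that carry or adjust steroid hormone signals were followed in bovine cumulus cells, the somatic cells around the oocyte, with and without follicle-stimulating hormone (FSH). The genes were the nuclear receptors ESR1, ESR2, PGR and NR3C1, the membrane-associated progesterone-binding proteins PGRMC1 and PGRMC2, the coregulators NRIP1 and NCOA1, and the co-chaperone FKBP5. Every probe that the platform annotation assigns to 1 of these symbols was taken, which gave 19 of the 43794 probes on the array, for 9 of the 15229 genes with a probe. Of the 19, 16 probes of 8 genes were bright enough to be tested, among 29062 tested probes in all. The 3 that were not tested were the single ESR1 probe, 1 of 4 NCOA1 probes and 1 of 3 FKBP5 probes.

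The FSH arm held 4 pools of cumulus cells from cumulus-oocyte complexes cultured for 6 h with recombinant human FSH at 0.5 µg/ml, and the control arm held 4 pools cultured without FSH. Both arms carried adenosine at 3 mM, 17β-estradiol at 1 µg/ml, 10% fetal bovine serum and pyruvate at 0.2 mM. An estrogen receptor ligand was therefore present in control cells too, and serum can carry other steroids. The complexes came from follicles of 3 to 6 mm of slaughterhouse ovaries, each pool is labelled with the number 10, whose unit the labels leave unclear, and the organism is given as Bos indicus. RNA was amplified linearly before labelling, and each FSH pool was hybridised against a control pool of the same number, once with FSH in Cy5 and once with FSH in Cy3. The 4 arrays of each orientation lay on 1 slide, so slide and dye orientation cannot be told apart. The labels call the pools biological replicates without saying whether they came from separate ovaries or cultures. P-values of FSH against control therefore measure the spread of the 4 FSH over control ratios of these pools.

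Nuclear steroid receptors are transcription factors that wait in a complex of heat shock proteins and co-chaperones, bind a steroid, and then recruit coactivators or corepressors at their target genes. In the ovary, ESR2 is the main estrogen receptor of granulosa cells, PGR is induced in the preovulatory follicle and is needed for ovulation, and NR3C1 is the receptor for cortisol. PGRMC1 and PGRMC2 are small heme-binding proteins of intracellular membranes that are linked to rapid progesterone responses.

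The labelled cell type was checked against its markers. Of 10 cumulus and granulosa markers, 9 were tested, and all 9 lay above the dimness limit on all 8 arrays in both channels. That limit was the mean plus 2 SD of 153 negative control spots of an array and channel. The share of probes above it ranged from 33.9% to 86.4% over arrays and channels. Control pool 3 had low shares in both dyes, 46.3% in Cy3 and 33.9% in Cy5, beside the highest limit of the 8 arrays in each dye (192.1 and 82.2) and the highest median signal (184.3 and 59.0). FSH pool 1 had a share of 42.5% in Cy3, with a limit of 142.1 and a median signal of 129.2. A probe can thus miss the limit in these channels without being dimmer than in the other pools. Fewer cells of one type and less RNA per cell cannot be told apart in these pools.

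No gene of the set passed the test of FSH against control. By limma on the 4 replicate ratios with Benjamini-Hochberg adjustment over all tested probes, 0 of 16 probes were called, where 0% of the 29062 tested probes were called (lowest adjusted p = 0.175). At an unadjusted p under 0.05 the count was 0 of 16, against 11.0% of tested probes (1779 higher and 1429 lower with FSH). Adjusted p-values of the 16 probes ran from 0.513 to 0.981. Mean log2 ratios of FSH over control ran from -0.21 for an FKBP5 probe to 0.17 for a PGRMC1 probe, 12 of 16 above 0, with a median of 0.038 against 0.0063 over all tested probes. The 95% intervals of the 16 means together ran from 0.686-fold to 1.38-fold. Both bounds are those of PGRMC1 probe EMBV3_42040, and the intervals of the other probes, given below for most of them, were narrower. A change of either size could thus remain unseen with that probe. Larger mean changes lie outside the intervals of all 16 probes in this fit. With the 8 arrays entered singly and a replicate block, 507 probes were called in all, 0 of them among the 16.

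**Figure D1:**
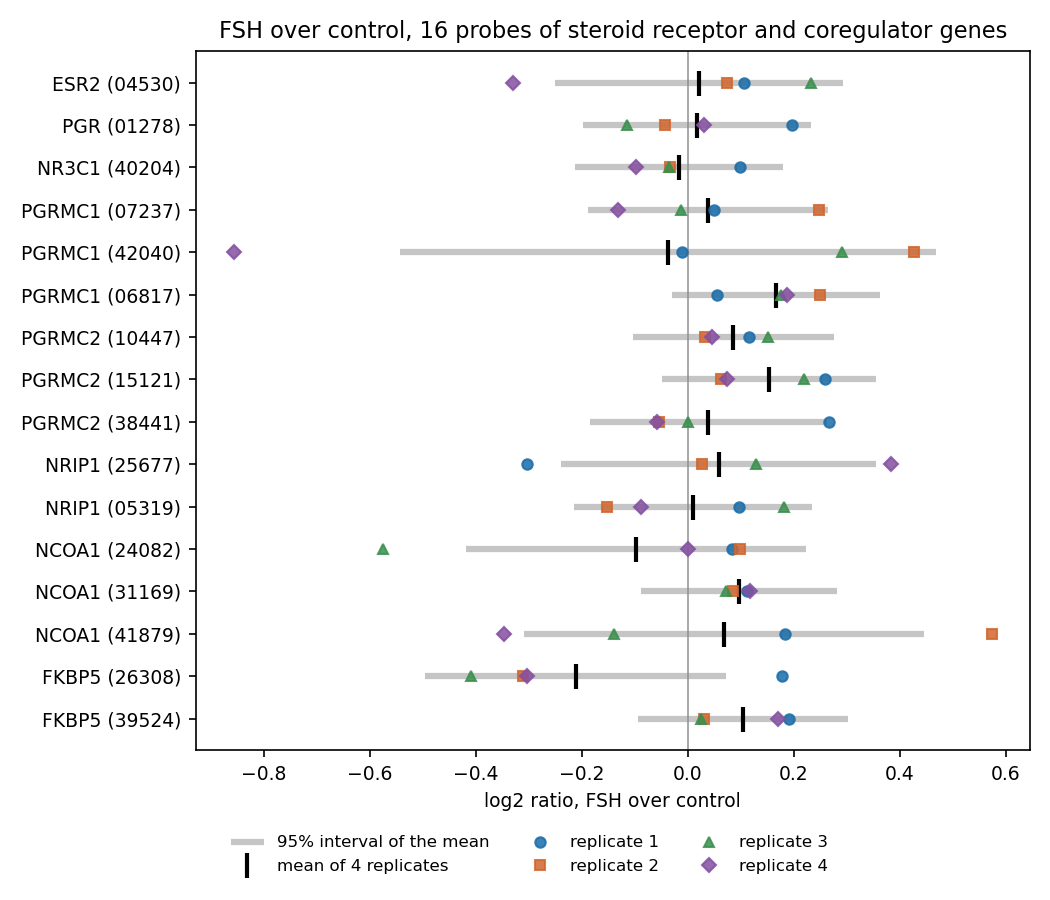
Log2 ratio of FSH over control (x axis) for the 16 tested probes, named by gene and the last digits of the probe (y axis); points are the 4 replicates, each the mean of both dye orientations, black ticks are means and grey bars their 95% intervals from limma. Every grey bar crosses 0, and the replicates of the PGRMC1 probe EMBV3_42040 and the NCOA1 probe EMBV3_41879 lie on both sides of 0.

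Among the nuclear receptors, ESR1, which encodes estrogen receptor alpha, was not well above background in either arm. Its only probe, EMBV3_15468, was under the limit on 8 of 8 arrays in both channels. Its signal was 0.603 to 0.983 times the limit in FSH channels and 0.563 to 0.959 times in control channels. These ranges bound the ESR1 signal from above and give no fold change between the arms.

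ESR2, which encodes estrogen receptor beta, stood just above the limit with probe EMBV3_04530. Its log2 ratios of FSH over control were 0.11, 0.073, 0.23 and -0.33 in replicates 1 to 4, a mean of 0.021 ± 0.24 (SD, n = 4). Replicate 4 alone was lower with FSH. The interval of the mean was 0.840-fold to 1.22-fold (limma adjusted p = 0.966). The control channel of replicate 3 was under its high limit on both arrays (181.0 against 192.1 in Cy3 and 62.5 against 82.2 in Cy5). Normalized single-channel signals of ESR2 on the log2 scale were 7.04, 6.99, 6.72 and 6.63 in FSH pools 1 to 4, and 6.99, 6.99, 6.65 and 6.85 in control pools 1 to 4. The arms overlapped, and in both of them pools 1 and 2 were higher than pools 3 and 4.

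PGR, which encodes the nuclear progesterone receptor, was above the limit on all 8 arrays in both arms (EMBV3_01278). Its log2 ratios were 0.20, -0.043, -0.12 and 0.031 in replicates 1 to 4, with a mean of 0.017 ± 0.13 (SD, n = 4). The signs were split evenly, and the interval was 0.872-fold to 1.17-fold (limma adjusted p = 0.963). In FSH pools 1 to 4 the normalized log2 signal of PGR was 8.44, 8.55, 8.93 and 8.75, and in control pools 1 to 4 it was 8.29, 8.60, 9.13 and 8.71. The order of the pools was the same in both arms, with pool 1 lowest and pool 3 highest. The range between pool numbers, averaged over arms, was 0.67 on the log2 scale, against a difference between arms of -0.017.

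NR3C1, which encodes the glucocorticoid receptor, was likewise above the limit on 8 of 8 arrays in both arms (EMBV3_40204). The 4 replicates gave log2 ratios of 0.099, -0.034, -0.035 and -0.097, a mean of -0.017 ± 0.082 (SD, n = 4). Its interval, 0.863-fold to 1.13-fold, was the narrowest of the nuclear receptors (limma adjusted p = 0.961). NR3C1 signals were 7.52, 7.46, 7.23 and 7.29 in FSH pools 1 to 4 and 7.45, 7.47, 7.32 and 7.35 in control pools 1 to 4. As for ESR2, pools 1 and 2 of both arms lay above pools 3 and 4, and the arms overlapped.

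The PGRMC genes had 3 probes each, and the probes of PGRMC1 disagreed in sign. The brightest, EMBV3_07237, gave log2 ratios of 0.049, 0.25, -0.013 and -0.13 in replicates 1 to 4, a mean of 0.038 ± 0.16 (SD, n = 4; interval 0.878-fold to 1.20-fold; limma adjusted p = 0.917). PGRMC1 signal with this probe was 12.29, 12.53, 11.99 and 12.07 in FSH pools and 12.34, 12.24, 11.85 and 12.25 in control pools. It exceeded the limit by a factor of at least 36.3 on every array, so dimness does not limit this value. The scaling does move it. From the scanner signals after background correction, its mean was 0.051 with loess but 0.40 with median centring. The latter lies above the interval of the reported fit (log2 upper bound 0.26). The next probe, EMBV3_42040, also bright, spread far more, with ratios of -0.010, 0.43, 0.29 and -0.86 and a mean of -0.038 ± 0.58 (SD, n = 4). Replicate 4 was lower and replicates 2 and 3 were higher with FSH, and the interval of 0.686-fold to 1.38-fold was the widest of the 16 probes. The third probe, EMBV3_06817, was near the limit and was higher with FSH in all 4 replicates (0.056, 0.25, 0.18 and 0.19; mean 0.17 ± 0.081, SD; limma adjusted p = 0.513). From the scanner signals after background correction and loess its mean was 0.033.

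PGRMC2 had positive means with all 3 probes. Its brightest probe, EMBV3_10447, gave log2 ratios of 0.12, 0.032, 0.15 and 0.046, a mean of 0.086 ± 0.057 (SD, n = 4; interval 0.930-fold to 1.21-fold; limma adjusted p = 0.734). The normalized log2 signal was 7.64, 7.71, 7.69 and 7.50 in FSH pools 1 to 4 and 7.46, 7.61, 7.54 and 7.53 in control pools 1 to 4, so the arms overlapped through FSH pool 4 and control pools 2 to 4. EMBV3_15121 was higher in all 4 replicates as well (mean 0.15 ± 0.099, SD), but its mean was -0.067 on the Cy5 slide and 0.37 on the Cy3 slide (named by the dye of FSH). Its FSH channel passed the limit on 7 of 8 arrays and its control channel on 6 of 8. The third PGRMC2 probe, EMBV3_38441, had a mean of 0.039 ± 0.15, carried by replicate 1 (0.27), with the other replicates between -0.058 and 0.00061.

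Over the whole set 5 of 16 probes were higher with FSH in all 4 replicates, against 11.7% of the tested probes, and 0 of 16 were lower in all 4, against 8.40%. The 5 were 1 probe of PGRMC1, 2 of PGRMC2, 1 of NCOA1 and 1 of FKBP5. Probes of 1 gene share its transcripts, and the choice of genes was made with earlier results of these data known. None of the 5 was called, and 4 of the 5 means lay between -0.012 and 0.033 when computed from the scanner signals with loess; PGRMC2 probe EMBV3_10447 stood at 0.10.

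The coregulators act on opposite sides of the receptors: NRIP1 (also called RIP140) is a corepressor that is needed in the mouse ovary for release of the oocyte, and NCOA1 (SRC-1) is a histone acetyltransferase coactivator. NRIP1 probe EMBV3_25677, above the limit on all 8 arrays, gave log2 ratios of -0.30, 0.026, 0.13 and 0.38 in replicates 1 to 4. These averaged 0.058 ± 0.28 (SD, n = 4; interval 0.847-fold to 1.28-fold; limma adjusted p = 0.899), lower with FSH in replicate 1 and highest in replicate 4. NRIP1 signals were 8.40, 8.79, 8.57 and 8.80 in FSH pools and 8.62, 8.69, 8.42 and 8.60 in control pools, and the arms overlapped. The dim second probe, EMBV3_05319, averaged 0.0091 ± 0.16.

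NCOA1 had 3 tested probes, with means of both signs. EMBV3_24082, the brightest, had log2 ratios of 0.083, 0.098, -0.57 and 0.0012 in replicates 1 to 4, a mean of -0.098 ± 0.32 (SD, n = 4; interval 0.748-fold to 1.17-fold; limma adjusted p = 0.830). The negative mean came from replicate 3 alone, and without it the mean was 0.061. NCOA1 signal with this probe was 9.50, 9.60, 9.55 and 9.69 in FSH pools 1 to 4 and 9.35, 9.45, 9.92 and 9.61 in control pools 1 to 4, with control pool 3 highest of the 8. EMBV3_31169 was the least variable probe of the set, with ratios of 0.11, 0.086, 0.072 and 0.12 and a mean of 0.097 ± 0.021 (SD, n = 4; limma adjusted p = 0.689). This agreement held only after both dyes were averaged, as described below for the orientations. EMBV3_41879 spread from -0.35 in replicate 4 to 0.57 in replicate 2, with a mean of 0.068 ± 0.40. The untested probe, EMBV3_35918, was above the limit on 5 of 8 arrays with FSH and 2 of 8 with control.

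FKBP5 encodes an immunophilin that lowers the hormone affinity of the glucocorticoid receptor and is itself induced by glucocorticoids and progestins. Its brightest probe, EMBV3_26308, had the lowest mean of the 16, with log2 ratios of 0.18, -0.31, -0.41 and -0.30 in replicates 1 to 4 and a mean of -0.21 ± 0.26 (SD, n = 4). The interval was 0.709-fold to 1.05-fold (limma adjusted p = 0.563). Replicates 2 to 4 were lower with FSH and replicate 1 was higher. Both slides gave the same mean to 2 decimals, -0.21. The scanner signals gave -0.17 ± 0.21 with normexp and loess, but 0.063 with median centring. FKBP5 signals were 9.46, 9.25, 9.39 and 9.25 in FSH pools 1 to 4 and 9.32, 9.46, 9.73 and 9.50 in control pools 1 to 4. FSH pools 2 to 4 all lay below control pools 2 to 4, while in pool 1 FSH was the higher, so the arms overlapped. The second FKBP5 probe, EMBV3_39524, went the other way, with 0.19, 0.030, 0.025 and 0.17 and a mean of 0.10 ± 0.088 (limma adjusted p = 0.687). The untested probe, EMBV3_35375, was above the limit on 4 of 8 arrays with FSH and 3 of 8 with control.

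**Figure D2:**
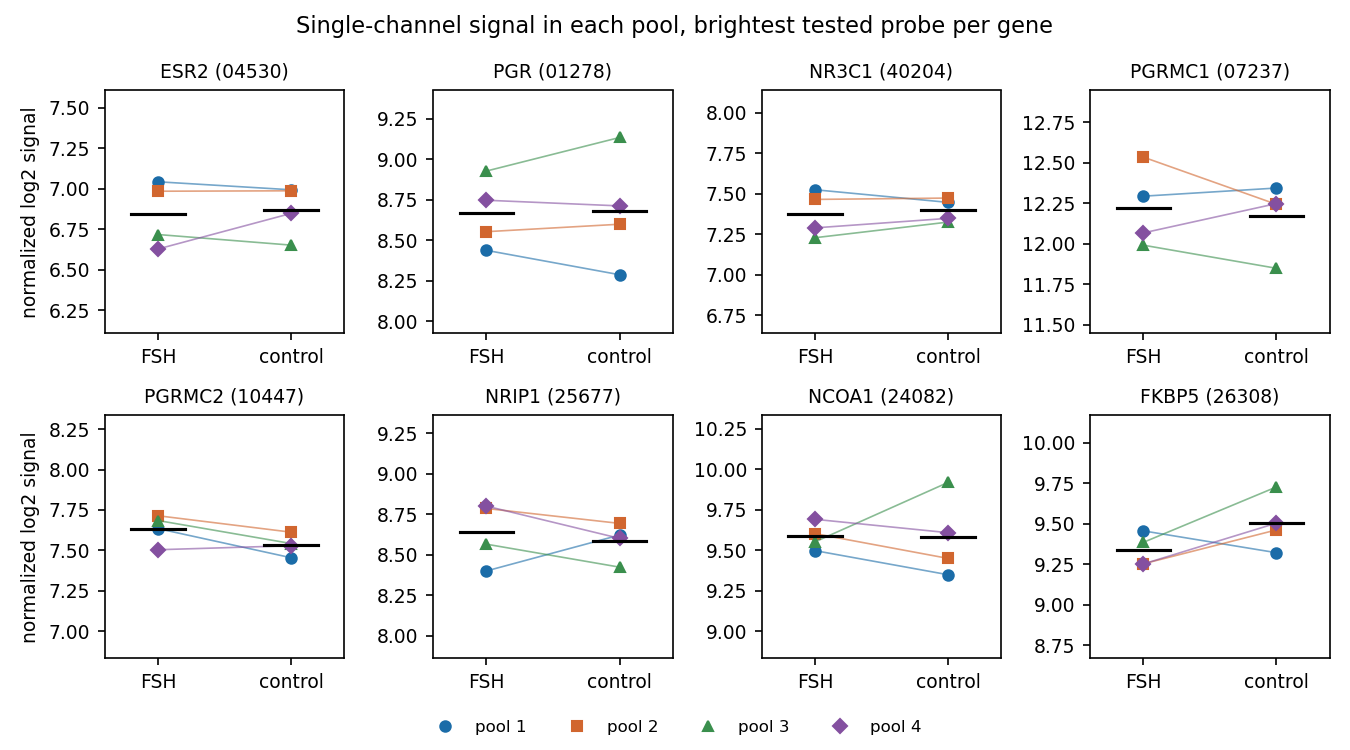
Normalized single-channel log2 signal (y axis, each panel spanning the same width) of the brightest tested probe of 8 genes in the 4 FSH pools (left) and 4 control pools (right); lines join pools of the same number, which shared arrays, and black bars are means. In each panel the arms overlap, and for ESR2, NR3C1 and PGR pools 1 and 2 lie apart from pools 3 and 4 in both arms.

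The spread between pools was set beside the difference between arms. For 16 of 16 probes the range between pool numbers, with both arms averaged, exceeded the size of the difference between arms, as it did for 92% of all tested probes, so the count is near that of the array as a whole. The median range was 0.24 on the log2 scale for the 16 probes against 0.20 for all tested probes, and the median size of the difference was 0.024 against 0.048. The signals of FSH and control pools did not overlap for 0 of 16 probes, where 3.67% of tested probes had arms that did not overlap. Pools 1 and 2 lay above pools 3 and 4, arms averaged, for ESR2, NR3C1, all 3 PGRMC1 probes and NCOA1 probe EMBV3_41879. For PGR, NRIP1 probe EMBV3_05319, NCOA1 probes EMBV3_24082 and EMBV3_31169 and, by a small margin, PGRMC2 probe EMBV3_15121 pools 3 and 4 lay above pools 1 and 2. Such a split was not particular to these genes. Over all 29062 tested probes, deviations from the arm means in FSH pools 1 and 2 correlated with those in control pool 3 at r of -0.692 and -0.629. The share of tested probes with either order is not given here. Pools that carry the same number shared arrays, and the part of the arrays in this order was not tested.

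By their profile over the 8 pools, the genes most like each of the set were named by the highest Pearson r among 11475 other tested genes. PIAS2 was most like ESR2 (r = 0.994), DGCR14 most like NR3C1 (0.993) and SFRS12 most like PGRMC1 (0.994). RYK was most like PGR (0.983), ACSL6 most like NCOA1 (0.982) and JOSD1 most like FKBP5 (0.983). GATAD1 was most like PGRMC2 (0.964) and SYNPR most like NRIP1 (0.940). These values are a description over 8 pools that share arrays in pairs, and the highest of so many comparisons is high by selection.

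The ratios were also compared between the dyes that carried FSH. For each replicate the ratio with FSH in Cy3 was subtracted from that with FSH in Cy5, and limma with Benjamini-Hochberg adjustment called 2 of 16 probes, a share near the 8.81% of the tested probes. NRIP1 probe EMBV3_05319 had ratios of 0.28, -0.042, 0.67 and 0.29 with FSH in Cy5, against -0.086, -0.27, -0.31 and -0.47 with FSH in Cy3. The dye difference was 0.58 (interval 0.27 to 0.90; limma adjusted p = 0.0366), and its FSH channel passed the limit on 7 of 8 arrays, its control channel on 6 of 8. NCOA1 probe EMBV3_41879 had 0.32, 0.84, 0.050 and -0.076 with FSH in Cy5, against 0.047, 0.31, -0.33 and -0.62 with FSH in Cy3, a dye difference of 0.43 (interval 0.20 to 0.66; limma adjusted p = 0.0368). In both probes every replicate was higher with FSH in Cy5 than with FSH in Cy3. NCOA1 probe EMBV3_31169 was above 0 on all 4 arrays with FSH in Cy5 (0.19 to 0.47) and below 0 on all 4 with FSH in Cy3 (-0.23 to -0.017), a difference of 0.40 that missed the threshold (limma adjusted p = 0.0625). Its small spread in the averaged ratio therefore combines opposite values of the 2 slides. In 2 of 10 other settings the dye difference of EMBV3_31169 passed (lowest limma adjusted p = 0.0152). The calls of EMBV3_05319 and EMBV3_41879 stayed in 3 of 9 and 4 of 10 other settings. The other 13 probes had higher adjusted p-values than EMBV3_31169, which does not show that they lack such a difference. Dye and slide coincide and cannot be told apart here. The number of the 16 probes called for dye moved with the processing, to 4 with normexp and loess, 10 without background correction and 0 with median centring, and it was 1 without replicate 2 and 0 without replicate 1, 3 or 4. The calls of EMBV3_05319 and EMBV3_41879 were both lost when the ratios came from the scanner signals with normexp and loess (differences of 0.069 for NRIP1, limma adjusted p = 0.299, and 0.088 for NCOA1, limma adjusted p = 0.207), a procedure that adds 50 to every signal.

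**Figure D3:**
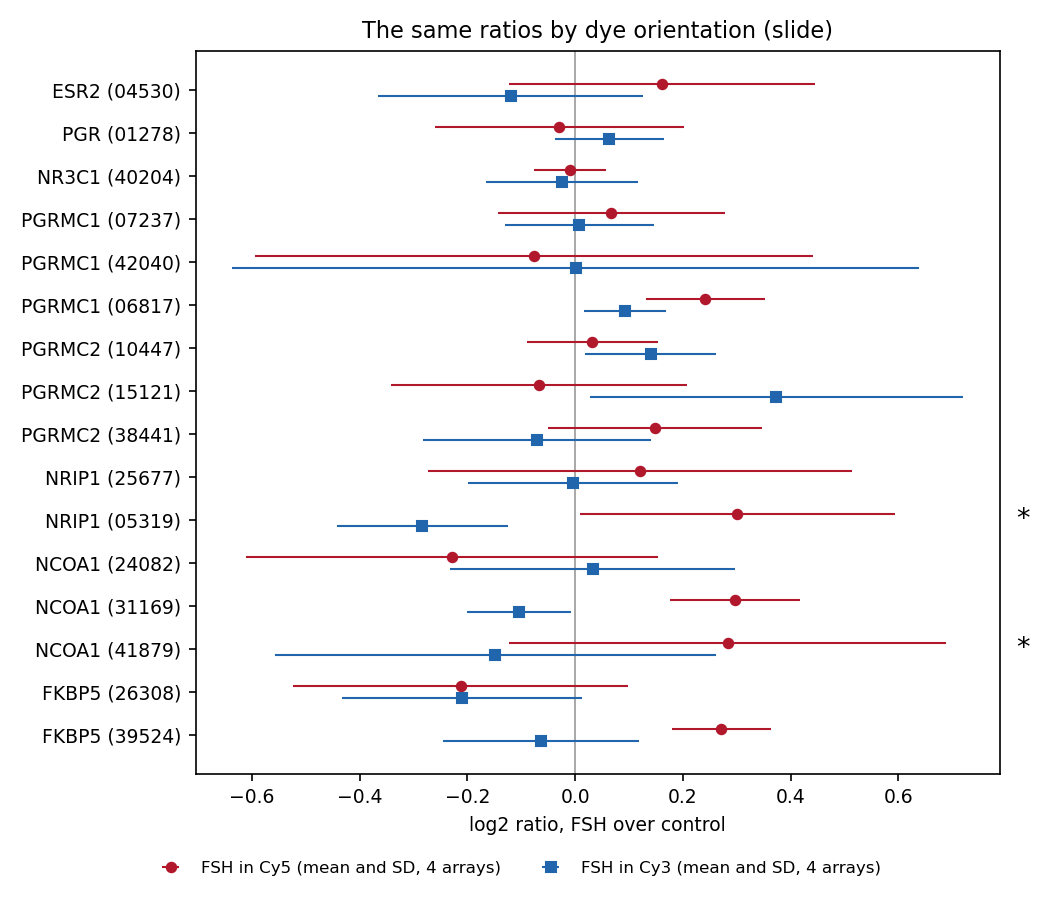
Mean log2 ratio of FSH over control (x axis) of the 16 tested probes with FSH in Cy5 (red circles, 4 arrays on 1 slide) and with FSH in Cy3 (blue squares, 4 arrays on the other slide); lines are SDs over 4 arrays, and asterisks mark an adjusted p under 0.05 for the difference. The means of the orientations lie on opposite sides of 0 for most of the 16 probes. Among these are NCOA1 probes EMBV3_31169 and EMBV3_41879 and NRIP1 probe EMBV3_05319. For FKBP5 probe EMBV3_26308 the orientations coincide.

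Other genes of the steroid pathway were read in lists, with 1 probe per gene and 11476 genes tested. Over all tested genes 6.69% were higher and 6.20% lower with FSH at an unadjusted p under 0.05, the median log2 ratio was 0.0023, and 0 genes were called after adjustment. For comparison, the 8 tested genes of the set had 5 higher and 3 lower means, 0 past the unadjusted threshold and a median of 0.019. None of the lists below had a called gene, and the counts that follow are at the unadjusted threshold. A gene said to pass with the replicate block passed in a fit of single arrays, which counts technical repeats, and not in the reported fit.

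Among 5 tested of 12 other steroid receptors, 1 gene was higher and 0 lower (median -0.0093). That gene was PAQR8, a membrane progestin receptor, with log2 ratios of 0.61, 0.47, 0.56 and 0.38 in replicates 1 to 4 and a mean of 0.51 ± 0.10 (SD, n = 4; limma adjusted p = 0.273). It was higher in 4 of 4 replicates and with both dyes (0.58 and 0.43), and its control channel was above the limit on 6 of 8 arrays. PAQR6, a related receptor, stood at -0.081 ± 0.080. With the replicate block PAQR8 passed (limma adjusted p = 0.0226), but from the scanner signals its mean was 0.23 to 0.33 over 3 scalings, and it did not pass.

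Of 22 tested coactivators 0 were higher and 4 lower (median 0.025). CREBBP, a histone acetyltransferase that works with NCOA1, averaged -0.46 ± 0.22 (limma adjusted p = 0.329) and UBE3A, a ubiquitin ligase that also acts as a receptor coactivator, -0.21 ± 0.028 (limma adjusted p = 0.412), each lower in 4 of 4 replicates. With median centring of scanner signals CREBBP stood at -0.098 and UBE3A at 0.067. Of 16 tested corepressors 2 were higher and 1 lower (median 0.041). LCORL, a relative of the ligand-dependent corepressor LCOR, averaged 0.40 ± 0.21 (0.17 with normexp and loess) and KDM1A, a histone demethylase, -0.55 ± 0.45 with replicate 1 at 0.050 (-0.27 with median centring).

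The receptor chaperones, which hold steroid receptors ready for hormone, had 0 higher and 5 lower genes of 14 tested, and a median of -0.071. The 5 include PTGES3, named after its values were seen, for which 3 of 4 tested probes had the opposite sign. STIP1, which passes receptors between HSP70 and HSP90, had log2 ratios of -1.09, -1.22, -0.31 and -1.34 in replicates 1 to 4, a mean of -0.99 ± 0.47 (SD, n = 4; limma adjusted p = 0.275). It was lower in every replicate and with both dyes (-1.03 and -0.95). STIP1 passed with the replicate block (limma adjusted p = 0.00752) and without replicate 3 (limma adjusted p = 0.0208), and its mean was -0.57 with median centring. FKBP4, the immunophilin that acts opposite to FKBP5 on the glucocorticoid receptor, averaged -0.27 ± 0.12, lower in 4 of 4 replicates (limma adjusted p = 0.383), and -0.14 with normexp and loess and -0.0054 with median centring. FKBP5 and FKBP4 thus had means of the same sign with their brightest probes, neither called. In the membrane-associated progesterone receptor family with known PGRMC partners, 0 of 7 tested genes passed either way (median 0.021). CYP51A1, a sterol demethylase bound by PGRMC1, averaged -0.43 ± 0.49 with replicate 3 at -1.17, and 1 of its 3 probes had the opposite sign. INSIG1, a partner in sterol control, stood at -0.25 ± 0.33.

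Lists of genes known to respond to each receptor were set beside the receptors. Estrogen-responsive genes had 0 higher and 1 lower of 11 tested (median -0.027), with GREB1, a growth regulator induced by estrogen, at -0.26 ± 0.21 (-0.070 with median centring) and the protease CTSD at -0.23 ± 0.22. Genes that depend on PGR in other systems had 1 higher and 2 lower of 8 tested (median -0.27). SNAP25, a vesicle fusion protein, gave 0.18, 0.83, 0.45 and 1.32 in replicates 1 to 4, a mean of 0.70 ± 0.49 (SD, n = 4; limma adjusted p = 0.331), and passed with the replicate block (limma adjusted p = 0.0317). HIF1A, the hypoxia-inducible factor, gave -0.44, -0.77, -0.35 and -1.33, a mean of -0.72 ± 0.44 (limma adjusted p = 0.329), which was -0.19 from scanner signals with median centring. The other lower gene was ADAMTS1, named after its values were seen, at -1.31 ± 1.26 with replicate 1 at 0.41 (limma adjusted p = 0.391). Of the 8 tested genes 2 had a higher and 6 a lower mean, beside a PGR mean of 0.017.

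Glucocorticoid-responsive genes had 4 higher and 3 lower of 21 tested (median 0.023). DUSP1, a phosphatase of MAP kinases, gave 1.66, 0.22, 1.34 and 0.83 in replicates 1 to 4, a mean of 1.01 ± 0.63 (SD, n = 4; limma adjusted p = 0.311). TSC22D3, also called GILZ, gave 0.35, 0.19, 0.82 and 0.61, a mean of 0.49 ± 0.28 (limma adjusted p = 0.329). Both were higher in 4 of 4 replicates, and both passed with the replicate block (limma adjusted p = 0.0115 and 0.0362), but with a dye term added DUSP1 passed (limma adjusted p = 0.0175) and TSC22D3 did not (limma adjusted p = 0.0530). The other genes past the unadjusted threshold are named after their values were seen. CEBPD (1.23 ± 0.88) and PDK4 (1.04 ± 0.83) were higher. The 3 lower genes were NFKBIA (-1.20 ± 0.99), DDIT4 (-0.75 ± 0.83) and SGK1 (-0.32 ± 0.25). Of the 21 tested genes 11 had a higher and 10 a lower mean. FKBP5, itself a classical glucocorticoid-responsive gene, had a mean of -0.21 with its brightest probe and 0.10 with its second. Among 6 tested enzymes that make or inactivate glucocorticoids and estrogens 1 was higher and 0 lower (median 0.060). HSD17B7 averaged 0.49 ± 0.50 and HSD17B1, which makes estradiol, -0.24 ± 0.57 with replicate 4 at -1.09.

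**Figure D4:**
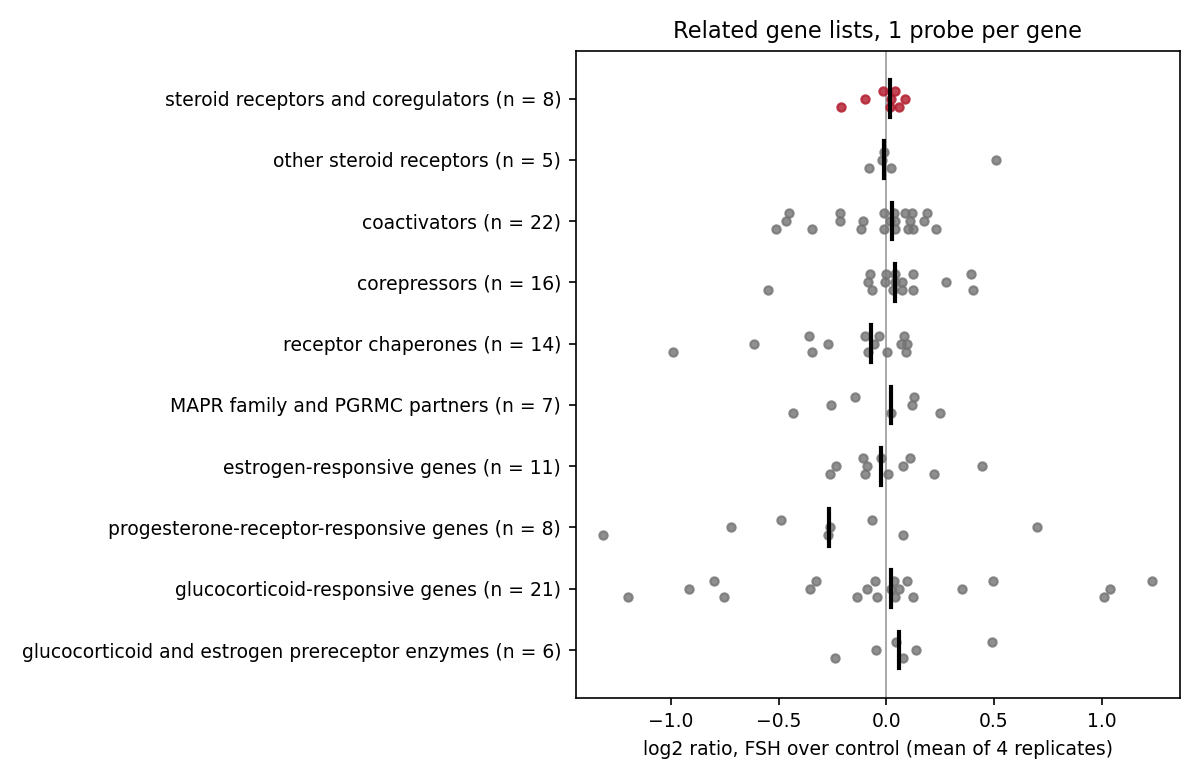
Mean log2 ratio of FSH over control (x axis) of each tested gene, 1 probe per gene, in the steroid receptor and coregulator set (red, top) and in related lists (grey); black ticks are list medians. The 8 genes of the set lie between -0.21 and 0.086, and STIP1 at -0.99 is the leftmost receptor chaperone.

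Markers of the cells that could be present were summed in each pool. Normalized signals were added on the linear scale over all genes with a probe, tested or not. The log2 of the sum is given, so the brightest genes weigh most. The log2 of the summed signal of the cumulus and granulosa markers was 14.74 to 15.25 in FSH pools. In control pools it was 15.59 to 15.74, without overlap. Without its brightest gene, INHBA, the sum was 14.11 to 14.56 in FSH pools and 14.57 to 14.70 in control pools. Of the 9 tested, 1 had a higher and 8 a lower mean, and 1 passed the unadjusted threshold, INHBA (-0.91 ± 0.47; limma adjusted p = 0.286, 0.0229 with the replicate block; -0.41 with median centring), with CYP19A1 at -0.40 ± 0.55. Oocyte markers summed to 10.15 to 10.21 in FSH pools and 10.19 to 11.30 in control pools, with control pools 3 and 4 highest. Of 8 tested, GDF9 averaged -0.43 ± 0.14 and BTG4 -1.17 ± 1.49, and GDF9 was above the limit on 2 of 8 arrays with FSH and 6 of 8 with control. Theca, stroma and endothelium markers (7 of 10 tested) summed to 11.83 to 12.72 in FSH pools and 12.08 to 12.86 in control pools, with COL3A1 at -0.42 ± 0.30 and MCAM at -0.58 ± 0.93. Immune cell markers (3 of 7 tested) summed to 9.74 to 10.67 in FSH pools and 9.81 to 10.92 in control pools, with LYZ at 0.46 ± 0.46 and CD3E at 0.049 ± 0.18. Red blood cell markers (2 of 4 tested) summed to 8.67 to 8.80 in FSH pools and 8.68 to 8.82 in control pools, with HBA at -0.20 ± 0.28 and SLC4A1 at 0.054 ± 0.064. In control channels 2 of 12 oocyte and 2 of 10 theca, stroma and endothelium markers passed the limit on all 8 arrays. The same held for 1 of 7 immune and 0 of 4 red blood cell markers. In FSH channels the counts were 2, 4, 1 and 2. These sums thus include signal near background. Without PTPRC, its brightest gene, the immune sum was 9.06 to 9.23 in FSH pools and 9.04 to 9.08 in control pools. The markers FOXL2, CYP17A1, DCN, PECAM1, CD68, AIF1, CD14, TYROBP, DPPA3, ZP2, ZP4, ZAR1, HBB and ALAS2 did not pass the filter on low signal and were not tested. The part of these markers in the ratios of the steroid receptors, coregulators and chaperones was not tested.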

How the data were processed

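Cumulus RNA from 4 FSH and 4 control pools was read on 8 2-colour arrays, per the labels' protocols amplified with T7 polymerase and labelled with Cy3 and Cy5. The deposited scanner files give spot intensity and local background per channel on a linear scale. The deposited series matrix gives log2 ratios of FSH over control. It equals the authors' normalized table of Cy5 over Cy3 after turning the arrays with FSH in Cy3 (largest difference 5e-06), and it correlated with the scanner log ratios with r of 0.454 to 0.768. Column medians were -0.0038 to 0.018. The authors' background correction and normalization are not given in the sources used here. Gene symbols came from the platform annotation (21790 probes with 1 symbol, 22004 without), which can be old.

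The 2 arrays of a replicate were averaged, and limma 3.58.1 in R 4.3.3 fitted an intercept and moderated the variance (eBayes), with Benjamini-Hochberg adjustment at 0.05. A probe was tested when it exceeded the mean plus 2 SD of 153 negative control spots on both arrays of 3 or 4 of the 4 replicates, whether in the FSH channel or that of control. Single-channel signals are scanner intensity after normexp (offset 50), loess and Aquantile, so their differences need not equal the matrix ratios. The number of arrays limits precision. A gene is represented by its brightest tested probe. The text names all probes of the 9 genes, the 2 genes of each list with the lowest unadjusted p, and the most alike gene over pools. The members and lists were chosen with earlier results of these data known. The fit was tested on simulated data. Deviations from the group means of same-numbered FSH and control pools correlated over probes with r of 0.706, 0.712, 0.609 and 0.208, to which shared arrays add. All 4 exceed 0.1, so the numbers were taken to pair pools, but FSH pool 4 correlated more with control pool 3 (0.729), and pools 1 and 2 correlated across numbers (0.591 and 0.551), so these values do not single out same-numbered pairs. Probe sequences were not used here.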

Additional observations from a re-analysis of the deposited data

Results flagged for a closer look

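Single samples stood far from the other 3 of their set in 4 of 76 sets of ratios or pool signals, against about 5% that chance gives. NCOA1 probe EMBV3_24082 had a log2 ratio of FSH over control of -0.57 in replicate 3. In the same replicate CYP51A1 stood at -1.17. HSD17B1 stood at -1.09 in replicate 4. The signal of PGRMC2 probe EMBV3_38441 was 6.61 in control pool 2, above the other control pools.

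For 3 probes the ratio was set apart by dye orientation, which coincides with the slide. The ratio with FSH in Cy5 minus that with FSH in Cy3 was 0.58 for NRIP1 probe EMBV3_05319 and 0.43 for NCOA1 probe EMBV3_41879, both past the threshold by limma, and neither with normexp and loess (limma adjusted p = 0.299 and 0.207). For NCOA1 probe EMBV3_31169 it was 0.40, not past the threshold in the reported fit but past it in 2 of 10 other settings. All 4 arrays of one orientation were above 0 and all 4 of the other below 0.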

How the results depend on the processing

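Of FSH against control, 0 probes were called in the reported fit and with 3 scalings of the scanner signals and 3 filters. With the arrays entered singly, 507 were called with a replicate block and 384 with a replicate block and dye term. Both of these fits count dye swaps of the same RNA as separate values. The slide with FSH in Cy5 alone gave 25 and that with FSH in Cy3 gave 2, and leaving out 1 replicate gave 0 to 38 (38 without replicate 3). In none of these settings was a probe of the 9 genes called. The dye difference called 2559 probes, and 8572 with normexp and loess, 0 with median centring, 13454 without background correction, 3522 with a looser and 1144 with a stricter filter, and 727 to 1154 without 1 replicate; median centring moved the median of all probes to -0.147. Among the 9 genes, the mean ratio changed sign in some settings, and the cause was not tested. With normexp and loess it was -0.027 for ESR2, -0.017 for PGR, -0.00077 for PGRMC2 EMBV3_15121, 0.0043 for NCOA1 EMBV3_24082, -0.036 for NCOA1 EMBV3_41879 and -0.012 for FKBP5 EMBV3_39524 (PAQR6 0.015, CD3E -0.0069). Without background correction it was -0.036 for ESR2, -0.051 for PGR, -0.0076 for NCOA1 EMBV3_41879 and -0.011 for FKBP5 EMBV3_39524 (PAQR6 0.00053). With median centring it was 0.098 for NR3C1, 0.30 for PGRMC1 EMBV3_42040, 0.24 for NCOA1 EMBV3_24082 and 0.063 for FKBP5 EMBV3_26308 (PAQR6 0.020, UBE3A 0.067, CYP51A1 0.040, CTSD 0.075, CD3E -0.0045), and the dye difference was -0.032 for NRIP1 EMBV3_05319, -0.22 for NCOA1 EMBV3_31169 and -0.11 for NCOA1 EMBV3_41879. On the slide with FSH in Cy3 it was -0.12 for ESR2, 0.0010 for PGRMC1 EMBV3_42040, -0.071 for PGRMC2 EMBV3_38441, -0.0041 for NRIP1 EMBV3_25677, -0.28 for NRIP1 EMBV3_05319, 0.033, -0.10 and -0.15 for NCOA1 EMBV3_24082, EMBV3_31169 and EMBV3_41879 and -0.064 for FKBP5 EMBV3_39524 (CD3E -0.16). On the slide with FSH in Cy5 it was -0.029 for PGR and -0.067 for PGRMC2 EMBV3_15121 (SLC4A1 -0.053). Leaving out 1 replicate gave means of -0.050 to 0.14 for ESR2, -0.043 to 0.062 for PGR, -0.055 to 0.010 for NR3C1, -0.032 to 0.095 and -0.19 to 0.24 for PGRMC1 EMBV3_07237 and EMBV3_42040, -0.037 to 0.071 for PGRMC2 EMBV3_38441, -0.050 to 0.18 and -0.048 to 0.063 for NRIP1 EMBV3_25677 and EMBV3_05319, -0.16 to 0.061 and -0.10 to 0.21 for NCOA1 EMBV3_24082 and EMBV3_41879, -0.36 to 0.047 for HSD17B1 and -0.0056 to 0.11 for CD3E. PGRMC1 EMBV3_06817 and PGRMC2 EMBV3_10447 kept their sign in every setting. Signal near background limits the ESR1, ESR2 and dim PGRMC2 and NRIP1 values.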
